A study of Homo sapiens with 12 samples.

Results

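Human small RNA libraries were examined for 6 mature miRNAs, hsa-miR-582-5p, hsa-miR-582-3p, hsa-miR-618, hsa-miR-95-3p, hsa-miR-138-5p and hsa-miR-216b-5p, out of the 1204 miRNAs that were counted. They were selected on the measured change of their counts, taken by name because these shifted strongly after deletion of MPC1 in at least 1 of 2 acute myeloid leukemia (AML) cell lines. The knockout changes that chose them are therefore given below as a description, as values and log2 fold changes with standard errors (SE), and without a p-value. All 6 passed the filter on low counts, as did 659 of the 1204 miRNAs, but hsa-miR-618, hsa-miR-138-5p and hsa-miR-216b-5p did so through Molm-14 and were not kept with MV4-11 fitted alone. They had been taken as miRNAs of a single locus, which is so for 5 of them. The sequence of hsa-miR-138-5p is encoded at 2 loci.

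MV4-11 and Molm-14 are lines of human AML cells, each with an internal tandem duplication of FLT3 and a rearranged KMT2A gene. In each line, MPC1 knockout cells (MPC1 KO) had been made with a CRISPR/Cas9 lentiviral construct that holds a GFP marker and a single guide RNA, and the controls carried an Empty Vector (EV). MPC1 encodes a subunit of the carrier that brings pyruvate into mitochondria, and the study asked how the use of pyruvate shapes the miRNAs of AML cells. There were 3 libraries in each of 4 groups, 12 in all, and the sources used here do not say whether the 3 came from separate cultures or whether the knockout cells were a clone. The p-values then measure the spread between these libraries, which may be technical.

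A miRNA is cut from a hairpin first by Drosha and then by Dicer, which leaves a duplex of the 5p and the 3p arm. Usually 1 arm is kept in an Argonaute protein, where its seed, bases 2 to 8 from the 5′ end, pairs with target mRNAs. Hairpins often lie in introns of longer transcripts, and hairpins close together on 1 strand can come from 1 primary transcript. Of the miRNAs described here, miR-138 is known for its abundance in the brain, and miR-216a, miR-216b and miR-217 are known as miRNAs of the exocrine pancreas.

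The mature sequences show that the 6 miRNAs are not relatives by seed. They are RefSeq sequences on GRCh38.p14, written 5′ to 3′ with the seed in capitals, and all 6 names matched. None of the 6 seeds recurs in another of the 2370 mature human miRNAs of that table.
hsa-miR-582-5p: uUACAGUUguucaaccaguuacu
hsa-miR-582-3p: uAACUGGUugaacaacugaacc
hsa-miR-618: aAACUCUAcuuguccuucugagu
hsa-miR-95-3p: uUCAACGGguauuuauugagca
hsa-miR-138-5p: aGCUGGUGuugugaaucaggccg
hsa-miR-216b-5p: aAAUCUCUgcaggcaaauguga

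The hairpins lie on 6 chromosomes of GRCh38. MIR582 (chromosome 5, 59703606 to 59703703, minus strand) is in an intron of PDE4D, a gene for a phosphodiesterase that breaks down cyclic AMP. MIR618 (chromosome 12, 80935736 to 80935833, minus strand) is in an intron of LIN7A. Both hairpins have the strand of their host gene in the GENCODE annotation. MIR95 is at chromosome 4, 8005301 to 8005381, on the minus strand. MIR216B (chromosome 2, 56000714 to 56000795, minus strand) is in an intron of the long noncoding RNA gene MIR217HG, on the same strand. MIR138-1 (chromosome 3, 44114212 to 44114310, plus strand) and MIR138-2 (chromosome 16, 56858518 to 56858601, plus strand) overlap no annotated host gene. The mRNAs and host transcripts are not measured by small RNA libraries and were not analysed here.

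The total count was between 3870104 and 8683456 per library, with a median of 5107200.5. Levels are given as CPM, the count scaled to the TMM-normalized size of the library, for which the TMM factors, which adjust totals for RNA composition, were between 0.940 and 1.08. All 6 miRNAs listed for blood cells (both arms of miR-142 and miR-223, miR-155-5p and miR-21-5p) were detected, with a summed level of 228250 to 337635 CPM. Most of this sum was miR-21-5p, with group means of 131903 to 242957 CPM, so the sum mainly gives the level of that miRNA. The group means of miR-142-3p were 20357 to 47054 CPM. The summed markers of red cells were at 3.19 to 11.7 CPM, of liver at 4.46 to 9.58, of brain at 0.883 to 6.79, and of the endocrine pancreas at 0 to 1.60. Those of epithelium, chosen as miR-200c-3p and miR-205-5p, were at 104 to 256 CPM, with miR-205-5p at 2 counts or fewer in every library. The endothelial miRNA miR-126-3p, which blood progenitors also express, was at 4172 to 6163 CPM. The sum of miR-143-3p and miR-145-5p, of fibroblasts and smooth muscle, was lower in Molm-14 and lower after deletion in each line. It was at 614 to 715 CPM in MV4-11 EV and 507 to 589 in its MPC1 KO libraries. In Molm-14 it was at 177 to 201 CPM in EV and 99.1 to 104 in MPC1 KO. This sum was mostly miR-143-3p, and the mean of miR-145-5p was 35.5 CPM in MV4-11 EV and 34.6 in its MPC1 KO libraries. The part of other cell types in the results was not tested.

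In the EV cells the lines stood apart in each of the 6 miRNAs. Both arms of miR-582 were higher in MV4-11, and miR-618, miR-95-3p, miR-138-5p and miR-216b-5p were higher in Molm-14. For all 6 the libraries of the lines did not overlap, as for 64.2% of all miRNAs tested. Of hsa-miR-582-5p, hsa-miR-582-3p and hsa-miR-95-3p, which had enough counts in each line alone, all 3 passed an adjusted p of 0.05 (edgeR's quasi-likelihood test, Benjamini-Hochberg adjustment over 659 miRNAs), as did 61.9% of all miRNAs. The other 3 entered the test through the line where they are high, so their gap is given with no p-value. For the same reason their lack of overlap is only a description. This comparison was not used to choose the miRNAs, although it has the EV libraries in common with the knockout comparisons.

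In MV4-11 EV the order of mean levels ran from hsa-miR-582-3p at 213 ± 12.5 CPM (SD, n = 3), place 128 of 659 miRNAs, to hsa-miR-582-5p at 15.8 ± 1.92, hsa-miR-95-3p at 5.87 ± 0.134 and hsa-miR-618 at 2.27 ± 0.628. hsa-miR-216b-5p at 0.596 ± 0.446 CPM and hsa-miR-138-5p at 0.463 ± 0.384 stood last, at places 628 and 630, and their libraries overlapped. In Molm-14 EV the order was different. hsa-miR-95-3p led at 52.3 ± 2.23 CPM (SD, n = 3) and hsa-miR-582-3p followed at 46.3 ± 7.12, with libraries that overlapped. hsa-miR-618 came next at 32.3 ± 2.67 and hsa-miR-216b-5p at 22.1 ± 3.12. hsa-miR-138-5p at 6.6 ± 0.95 CPM and hsa-miR-582-5p at 3.63 ± 1.53 were the lowest, at places 379 and 465 of 659. Counts of different sequences depend on how well each is ligated and amplified, so these orders compare counts and not molecules.

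Counted as Molm-14 minus MV4-11, the log2 difference between the EV cells was -2.15 for hsa-miR-582-5p (SE 0.26, adjusted p = 1.19e-07 from edgeR) and -2.21 for hsa-miR-582-3p (SE 0.13, adjusted p = 2.34e-13). It was 3.16 for hsa-miR-95-3p (SE 0.18, adjusted p = 1.11e-13). For hsa-miR-618 the fitted gap was 3.88 (SE 0.25), for hsa-miR-138-5p 3.89 (SE 0.51) and for hsa-miR-216b-5p 4.92 (SE 0.30). These 3 gaps rest on 36, 7 and 12 counts over the MV4-11 EV libraries. With 1 library left out, that of hsa-miR-138-5p was between 3.39 (without MV4-11 EV replicate 1) and 4.62 (without replicate 2), and that of hsa-miR-216b-5p between 4.62 (without replicate 3) and 5.83 (without replicate 1).

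After MPC1 deletion the 6 miRNAs followed different patterns in the lines. In MV4-11 the MPC1 KO libraries all lay below the EV libraries for 3 of the 6 and overlapped them for the other 3, and over all miRNAs 17.5% did not overlap, 7.13% with MPC1 KO lower. In Molm-14 the libraries of 5 of the 6 did not overlap, 2 of them higher and 3 lower in MPC1 KO, against 27.2% of all miRNAs (12.3% higher, 14.9% lower). An adjusted p of 0.05 was passed by 3.03% of all miRNAs in MV4-11 (1.06% lower). In Molm-14 6.83% passed it (2.73% higher, 4.1% lower). Since these comparisons chose the 6 miRNAs, no call is given for them. Nothing follows from how many did not overlap, or from their places by size of change given below. Besides, hsa-miR-618 had passed the filter only through Molm-14, and hsa-miR-138-5p only through Molm-14 EV. The comparisons over all miRNAs depended on scaling for their split into rises and falls, which was 13 and 7 in MV4-11 and 18 and 27 in Molm-14, and 10 and 15 and then 30 and 23 with upper-quartile factors.

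**Figure D1:**
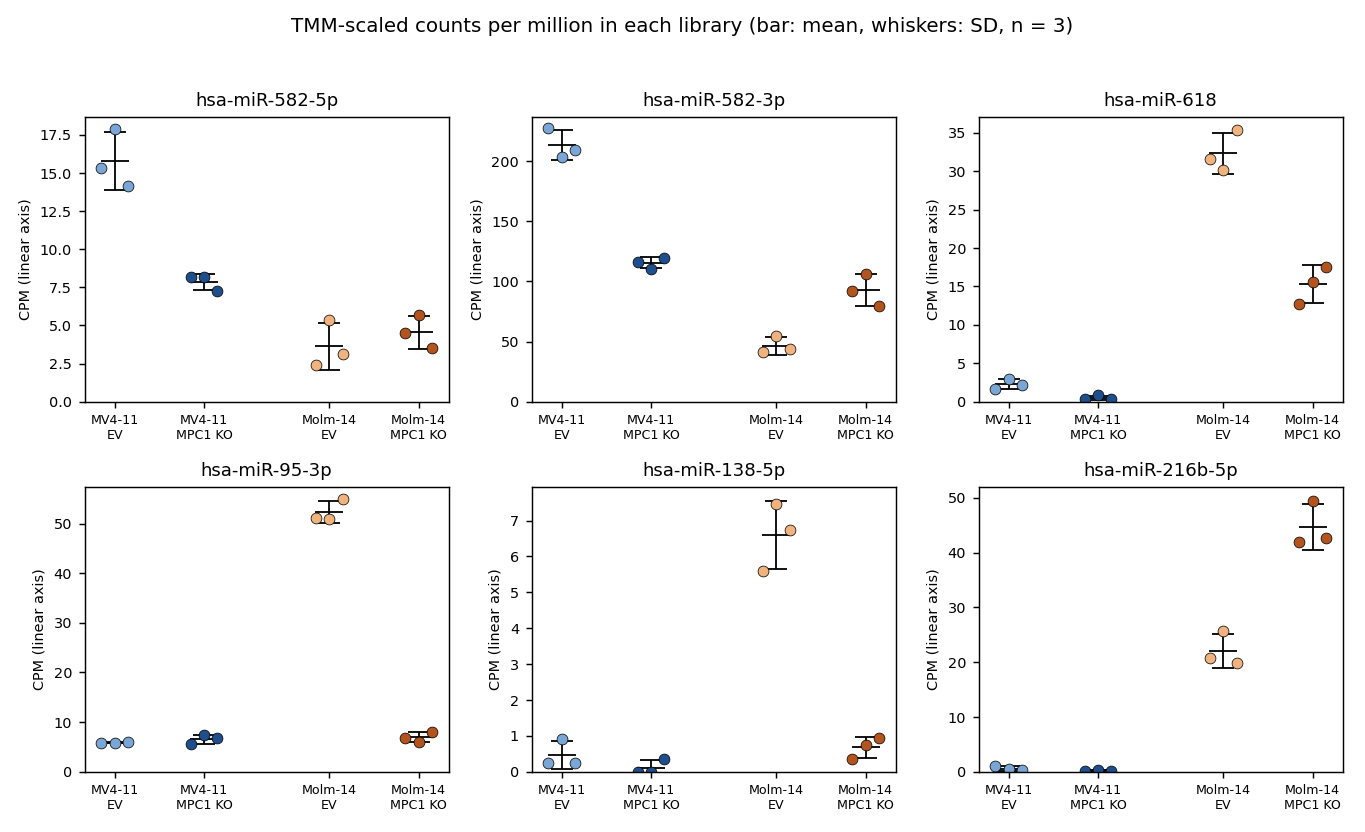
Level of each of the 6 miRNAs in every library, in CPM of the TMM-normalized library, by group (EV and MPC1 KO of each line), with points for the libraries and bars and whiskers for the mean and SD of 3. hsa-miR-95-3p stands at 51.0 to 54.9 CPM in the Molm-14 EV libraries and at 5.63 to 7.97 CPM in both groups of MPC1 KO libraries.

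miR-582 was lower after MPC1 deletion in MV4-11, in both arms, and its 3p arm was higher after the deletion in Molm-14. The 2 arms come from 1 hairpin, printed here with both arms in capitals because they are nearly complementary and both were among the 6.
MIR582: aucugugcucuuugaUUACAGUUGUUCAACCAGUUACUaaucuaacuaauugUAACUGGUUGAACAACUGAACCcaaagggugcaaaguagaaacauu

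In MV4-11, hsa-miR-582-3p was at 228, 203 and 209 CPM in the EV libraries and at 116, 111 and 120 CPM in the MPC1 KO libraries. Every MPC1 KO library lay below every EV library, and the highest of them was well short of the lowest EV library. The log2 fold change was -0.89 (SE 0.12), the 38th largest of 659 in size. In Molm-14, hsa-miR-582-3p was at 41.1, 54.4 and 43.4 CPM in EV and at 92.4, 106 and 80.0 CPM in MPC1 KO. Here every MPC1 KO library lay above every EV library, and the log2 fold change was 1.01 (SE 0.13), the 27th largest in size. The direction was thus opposite in the lines, a pattern of libraries, lower in MV4-11 and higher in Molm-14 with no overlap in either, that 10 of 659 miRNAs showed (1.52%). The knockout effect in Molm-14 minus that in MV4-11 was 1.90 on the log2 scale (SE 0.18).

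hsa-miR-582-5p, the less abundant arm, was at 15.3, 17.9 and 14.1 CPM in the MV4-11 EV libraries and at 8.16, 8.19 and 7.24 CPM in the MPC1 KO libraries. It moved as its partner did in this line, with no overlap and a log2 fold change of -1.0 (SE 0.23). In Molm-14 it was at 2.4, 5.34 and 3.15 CPM in EV and at 4.49, 5.69 and 3.52 CPM in MPC1 KO, from 12 to 31 counts a library. These libraries overlapped, since the second EV library was above 2 of the MPC1 KO libraries, and the log2 fold change of 0.39 (SE 0.30) was close to its error. The difference between the effects was 1.39 (SE 0.38). In 28 of 659 miRNAs (4.25%) the libraries were likewise lower in MV4-11 and overlapping in Molm-14.

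The 3p arm took most reads of the hairpin in each library. Its share of the counts of both arms ranged from 91.9% to 93.7% over MV4-11 EV libraries and from 93.1% to 94.3% in MV4-11 MPC1 KO. In Molm-14 it was between 91.1% and 94.5% in EV and between 94.9% and 95.8% in MPC1 KO. Over all libraries of a group, 92.9% of 649 counts were of the 3p arm in Molm-14 EV (exact Clopper-Pearson 95% interval 90.7% to 94.8%) and 95.3% of 1505 in Molm-14 MPC1 KO (94.1% to 96.3%). In Molm-14 each MPC1 KO library had a higher share than each EV library, while the intervals of the group sums overlapped. The lowest MPC1 KO share, 94.9%, was just above the highest EV share, 94.5%. These shares rest on 12 to 31 counts of the 5p arm a library. Both arms were chosen on the knockout changes, so this is only a description, and a shift between the arms was not tested. In MV4-11 the shares were 93.2% of 3906 counts in EV (92.4% to 94.0%) and 93.6% of 2069 in MPC1 KO (92.5% to 94.6%). Such intervals cover counting error only, since reads amplified by PCR are not independent molecules.

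**Figure D2:**
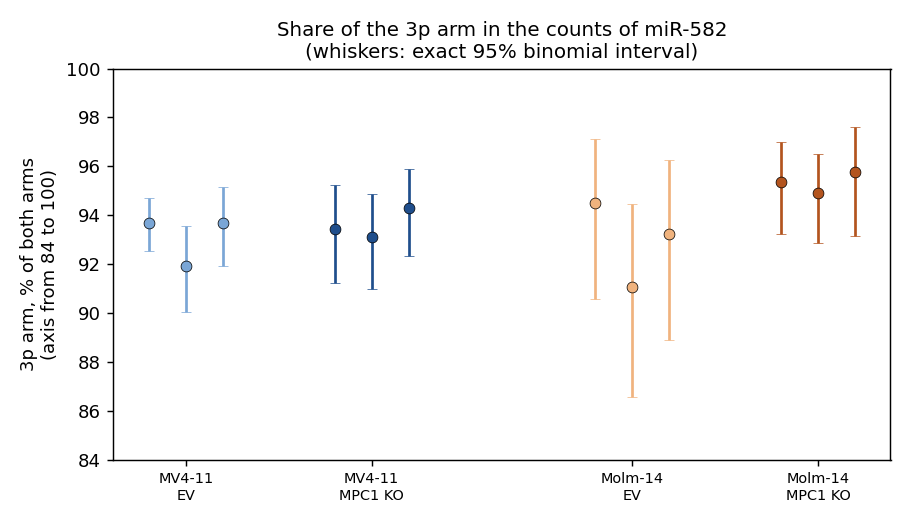
Share of the 3p arm, in percent of the counts of both arms of hsa-miR-582, in each of the 12 libraries, with exact 95% binomial intervals as whiskers. The 3 Molm-14 MPC1 KO libraries stand at 94.9% to 95.8% and the other 9 between 91.1% and 94.5%, with whiskers that overlap between groups.

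miR-618 was the only one of the 6 whose libraries were lower after MPC1 deletion in both lines without overlap, a pattern that 9 of 659 miRNAs showed (1.37%). In Molm-14, hsa-miR-618 was at 31.5, 30.2 and 35.3 CPM in EV and at 12.8, 15.6 and 17.6 CPM in MPC1 KO. The groups were far apart, and the log2 fold change was -1.08 (SE 0.19), the 20th largest in size. In MV4-11 it was at 1.70, 2.94 and 2.15 CPM in EV and at 0.389, 0.836 and 0.353 CPM in MPC1 KO, from 14, 13 and 9 counts and from 2, 5 and 2 counts. All MPC1 KO libraries lay below the EV libraries here too, with a log2 fold change of -1.98 (SE 0.44). The sum of 36 counts in EV against 9 in MPC1 KO gave a level 4.0 times as high in EV, with an exact 95% interval of 1.89 to 9.43 that covers counting error only. The fitted change was larger in MV4-11 than in Molm-14, but the difference between the effects was 0.89 with an SE of 0.48. Without the second MV4-11 MPC1 KO library, which held 5 of the 9 counts, the change in MV4-11 was -2.49 and the difference 1.41.

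After MPC1 deletion hsa-miR-95-3p was lower in Molm-14, at about the level it had in MV4-11. In Molm-14 it was at 51.1, 51.0 and 54.9 CPM in EV, from 256, 191 and 244 counts, and at 6.83, 6.05 and 7.97 CPM in MPC1 KO, from 38, 33 and 34 counts. The mean in EV was 7.53 times that in MPC1 KO, and the spread within each group was small beside this gap. The log2 fold change of -2.92 (SE 0.18), on which it was chosen, was the 2nd largest in size of all 659 in this line. In MV4-11 hsa-miR-95-3p was at 5.72, 5.89 and 5.99 CPM in EV and at 5.63, 7.36 and 6.71 CPM in MPC1 KO. These libraries overlapped, because the lowest of all 6 was an MPC1 KO library, and the log2 fold change was 0.17 (SE 0.21), in place 359 of 659 by size. The knockout effect in Molm-14 minus that in MV4-11 was -3.09 (SE 0.27), and 72 of 659 miRNAs (10.9%) had libraries that overlapped in MV4-11 and were lower in Molm-14. The other arm of this hairpin, hsa-miR-95-5p, was not among the miRNAs counted.

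By its fitted value hsa-miR-138-5p had the largest knockout change in size in Molm-14 of all 659 miRNAs, but it was chosen on this change. The miRNA passed the filter only through Molm-14 EV, the group where it is high, so nothing follows from this place. Its libraries held 28, 28 and 30 counts in Molm-14 EV, or 5.59, 7.47 and 6.75 CPM, and 2, 4 and 4 counts in MPC1 KO, or 0.360, 0.734 and 0.938 CPM. No MPC1 KO library came near the EV libraries, and the log2 fold change was -3.27 (SE 0.48). The sums of 86 and 10 counts gave a level 9.95 times as high in EV, with a counting interval of 5.16 to 21.5. The change was -2.94 without the first MPC1 KO library, and that of hsa-miR-95-3p, at -2.92, lay within its error, so the order of this pair is not settled.

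In MV4-11, hsa-miR-138-5p was at the limit of counting. There were 2, 4 and 1 counts in EV against 0, 0 and 2 in MPC1 KO, so the groups overlapped. The MPC1 KO sum was 0.286 of the EV sum after scaling, with an interval of 0.0290 to 1.5 that includes both no change and a fall of the size seen in Molm-14. The fitted log2 fold change of -1.64 (SE 1.02) was -4.21 without MPC1 KO replicate 3, the only library of its group with a count, and -0.90 without the second EV library. The difference between the lines, -1.64 (SE 1.59), changed to 0.94 without MPC1 KO replicate 3.

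Reads of hsa-miR-138-5p cannot be assigned to a locus, because both hairpins hold the same 5p arm. They are printed with the arms in capitals since their 3p arms, which are equal at 18 of 22 positions, do tell them apart.
MIR138-1: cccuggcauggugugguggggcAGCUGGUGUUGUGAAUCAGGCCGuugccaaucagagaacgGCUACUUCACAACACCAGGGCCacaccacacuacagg
MIR138-2: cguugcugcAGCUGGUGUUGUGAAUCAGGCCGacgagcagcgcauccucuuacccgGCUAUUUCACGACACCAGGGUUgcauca

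The 3p arm of MIR138-1 was counted only in Molm-14. hsa-miR-138-1-3p held 4, 4 and 5 counts in the Molm-14 EV libraries, 1, 1 and 0 counts in Molm-14 MPC1 KO, and 0 counts in all 6 MV4-11 libraries, too few for the filter. The EV libraries all lay above the MPC1 KO libraries, which also held for 14.9% of the miRNAs that passed the filter. The arm was seen mostly in Molm-14 EV, the group where it is high, so this is only a description. The EV level was 7.52 times that in MPC1 KO from 13 and 2 counts, with a counting interval of 1.70 to 68.7. The 3p arm of MIR138-2 was not among the miRNAs counted, so the part of each locus in the 5p counts was not tested.

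**Figure D3:**
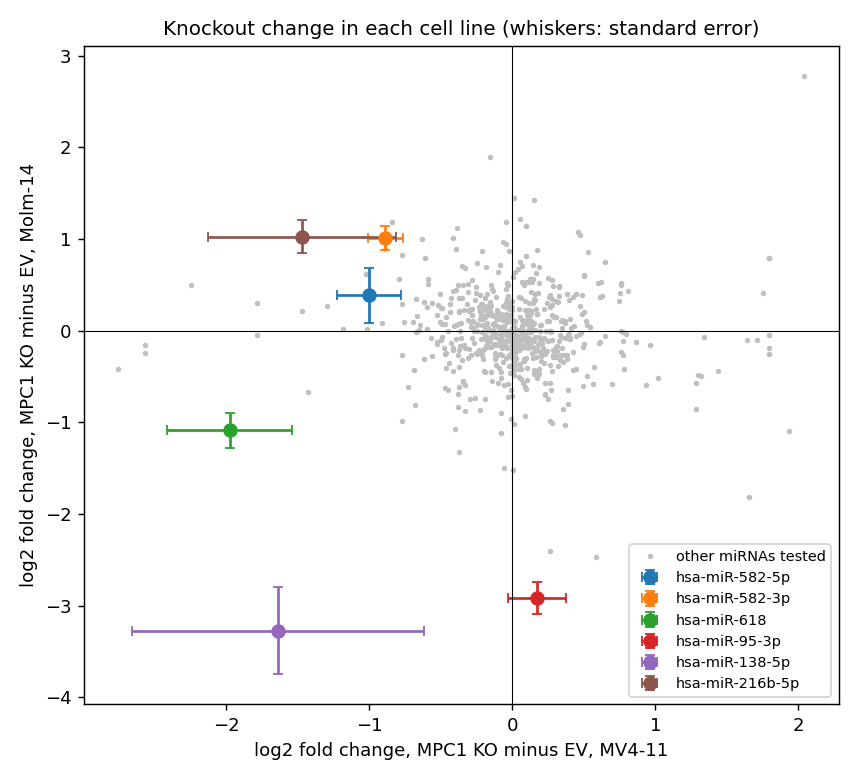
Knockout change in Molm-14 against that in MV4-11, both as log2 fold changes of MPC1 KO against EV, for the 6 miRNAs in color and for all 659 tested miRNAs in grey, with standard errors as whiskers. hsa-miR-582-3p lies at -0.89 in MV4-11 and 1.01 in Molm-14, and hsa-miR-95-3p at 0.17 and -2.92. The wide horizontal whisker of hsa-miR-138-5p comes from 7 and 2 counts in MV4-11.

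hsa-miR-216b-5p was higher after MPC1 deletion in Molm-14 and nearly absent from MV4-11. In Molm-14 it was at 20.8, 25.6 and 19.8 CPM in EV and at 41.9, 49.5 and 42.7 CPM in MPC1 KO, from 88 to 270 counts a library. Every MPC1 KO library lay above every EV library, and the log2 fold change was 1.02 (SE 0.18), the 25th largest in size. In MV4-11 there were 9, 2 and 1 counts in EV against 1, 2 and 1 in MPC1 KO, and the groups overlapped. The fitted log2 fold change there was -1.47 (SE 0.66), and it was -0.51 without the first EV library, which held 9 of the 12 EV counts. After scaling, the MPC1 KO sum was 0.334 of the EV sum, with an interval of 0.0784 to 1.10. The difference between the lines of 2.5 (SE 0.68) was 1.56 without that library. Libraries that overlapped in MV4-11 and were higher in Molm-14 were found for 60 of 659 miRNAs (9.10%).

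MIR216B has 2 other hairpins beside it on the same strand, MIR216A (chromosome 2, 55988950 to 55989059) and MIR217 (chromosome 2, 55982967 to 55983076), both also in introns of MIR217HG. MIR216A is 11655 bases and MIR217 17638 bases away from MIR216B. The 5p arms of the other hairpins are shown here, seed in capitals, to set beside that of hsa-miR-216b-5p above. hsa-miR-216a-5p equals hsa-miR-216b-5p at 18 of 22 positions and at 6 of the 7 seed bases, and how reads with mismatches were divided between them is not stated, while hsa-miR-217-5p equals hsa-miR-216b-5p at 6 of 22 positions.
hsa-miR-216a-5p: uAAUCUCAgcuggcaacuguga
hsa-miR-217-5p: uACUGCAUcaggaacugauugga

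Of 8 partner arms and arms of neighbouring hairpins that were listed for their place, 5 were counted and 3 passed the filter. The list was made with earlier results of these data known, which limits what its p-values can show. Of the 3 that passed the filter, 1, miR-217, was past the threshold in Molm-14, where 6.83% of all miRNAs were. hsa-miR-217 was at 9.38, 10.1 and 11.2 CPM in Molm-14 EV and at 19.8, 17.2 and 17.4 CPM in MPC1 KO. Its libraries did not overlap, as for 27.2% of all miRNAs, and its log2 fold change was 0.82 (SE 0.22, adjusted p = 0.0176 from edgeR). This call was lost without the first EV library (adjusted p = 0.0850) or the first MPC1 KO library (adjusted p = 0.0887) of Molm-14, with a log2 fold change of 0.77 in both cases.

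hsa-miR-216a-5p held 6, 2 and 10 counts in Molm-14 EV and 14, 11 and 11 counts in MPC1 KO. Scaled to CPM the libraries overlapped, and the log2 fold change was 0.79 (SE 0.54, adjusted p = 0.472 from edgeR). hsa-miR-216a-3p held 11, 6 and 24 counts in EV and 28, 31 and 23 counts in MPC1 KO, with overlap in CPM and a log2 fold change of 0.79 (SE 0.39, adjusted p = 0.263). Molm-14 EV replicate 3 was the highest EV library for both arms, and without it the log2 fold changes were 1.37 (5p, adjusted p = 0.293) and 1.48 (3p, adjusted p = 0.0511). They were 0.50 and 0.55 without Molm-14 EV replicate 2. hsa-miR-216b-3p, which did not pass the filter, held 7, 6 and 2 counts in EV and 13, 8 and 6 in MPC1 KO.

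In MV4-11 the 3 neighbours that passed the filter had at most 1 count in any library, so neither a fold nor a test of the knockout is given for that line. They had passed the filter through Molm-14. hsa-miR-217 had 2 counts in MV4-11 EV and 135 in Molm-14 EV, a ratio of 85.9 (counting interval 23.3 to 717). In MV4-11 EV both arms of miR-216a had 0 counts, and against a floor of 3 counts over the group they were at least 7.64-fold (5p) and 17.4-fold (3p) higher in Molm-14 EV.

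**Figure D4:**
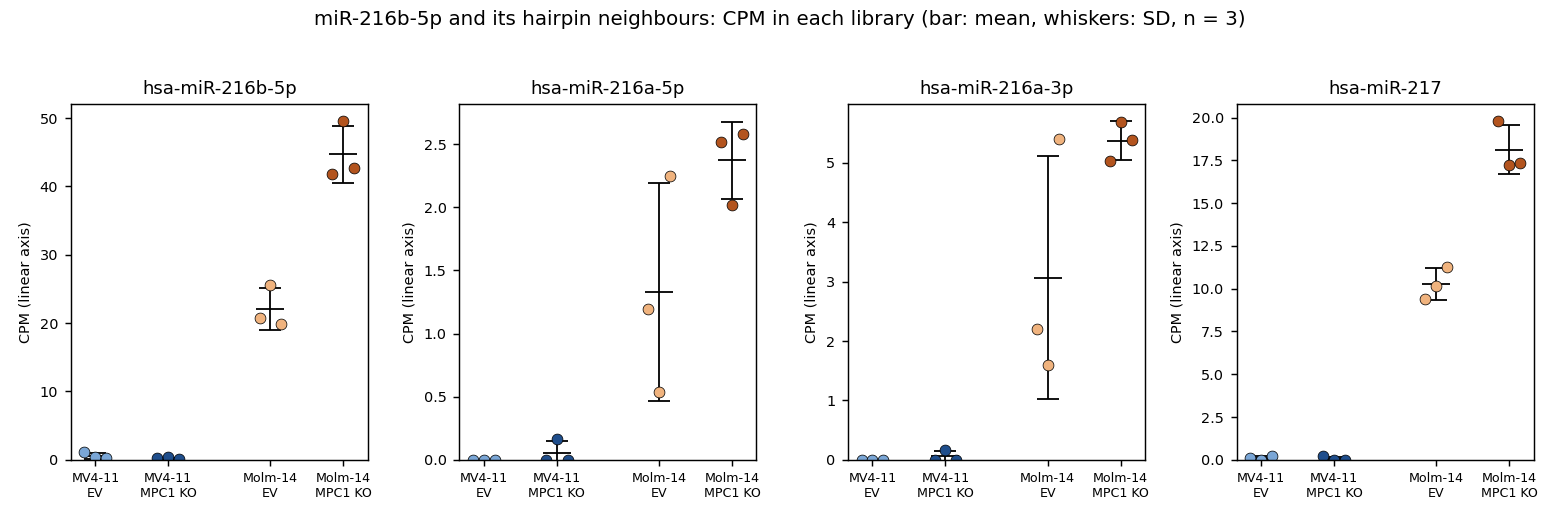
Levels of the miRNAs of the MIR216B, MIR216A and MIR217 hairpins in each library, in CPM on linear axes that differ between panels, by group, with points for the libraries and bars and whiskers for the mean and SD of 3. hsa-miR-216b-5p and hsa-miR-217 stand higher in the Molm-14 MPC1 KO libraries (41.9 to 49.5 and 17.2 to 19.8 CPM) than in Molm-14 EV (19.8 to 25.6 and 9.38 to 11.2 CPM), and in MV4-11 all are near or at 0.

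The fitted distance between the lines was narrower among the MPC1 KO cells for some of the 6 and wider for others. This comparison of the MPC1 KO libraries of the lines was added after their values had been seen, and it has its libraries in common with the knockout comparisons, so it is a description. Fitted levels of hsa-miR-582-3p were 4.63-fold apart between the EV cells and 1.24-fold apart between the MPC1 KO cells. For hsa-miR-582-5p the distance went from 4.45-fold to 1.70-fold, with MV4-11 still higher in all libraries. hsa-miR-95-3p, at 8.92-fold between the EV cells, was 1.05-fold apart between the MPC1 KO cells, where the log2 difference was 0.07 (SE 0.20) and the libraries overlapped. hsa-miR-138-5p went from 14.8-fold to 4.76-fold, on 2 and 10 counts among the MPC1 KO libraries. This narrowing reversed without MV4-11 MPC1 KO replicate 3, where the log2 gap among the MPC1 KO cells was 4.80.

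hsa-miR-618 was 14.7-fold higher in Molm-14 among EV cells and 27.3-fold higher among MPC1 KO cells, on 9 counts in MV4-11 MPC1 KO, and the difference of 0.89 had an SE of 0.48. For hsa-miR-216b-5p the values were 30.3-fold and 171-fold higher in Molm-14, but MV4-11 MPC1 KO held 4 counts of it in all, and the ratio of sums had a counting interval of 73.2 to 693. Among MPC1 KO libraries, 5 of the 6, all but hsa-miR-95-3p, had libraries that did not overlap between the lines, as had 67.5% of all miRNAs. Of these 5, hsa-miR-618, hsa-miR-138-5p and hsa-miR-216b-5p had passed the filter only through Molm-14, the line where they are high.

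**Figure D5:**
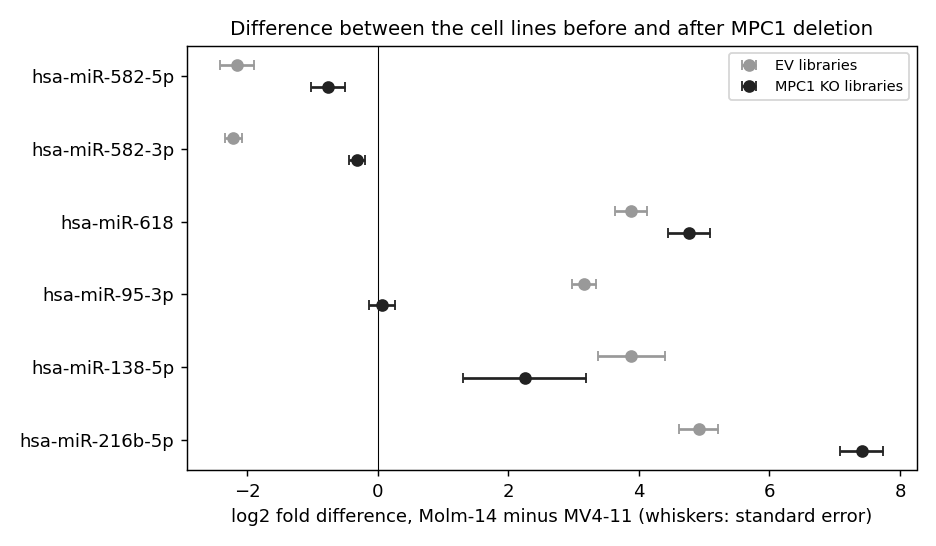
Log2 difference between the lines, Molm-14 minus MV4-11, for each of the 6 miRNAs among EV libraries (grey) and among MPC1 KO libraries (black), with standard errors as whiskers. hsa-miR-95-3p goes from 3.16 to 0.07 and hsa-miR-582-3p from -2.21 to -0.31, toward 0, while hsa-miR-216b-5p goes from 4.92 to 7.41, away from it.

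The patterns of the 6 miRNAs over the 12 libraries were compared by Pearson's r of log2(CPM + 0.5). The points come from 4 groups of 3 libraries, so r mostly follows the group means and is a description. It was highest, at 0.93, 0.94 and 0.92, between the arms of miR-582, between hsa-miR-95-3p and hsa-miR-138-5p, and between hsa-miR-618 and hsa-miR-216b-5p. The last pair moved in opposite directions with MPC1 deletion in Molm-14, so that its r followed the gap between the lines. The other pairs ran from -0.86 (hsa-miR-582-3p with hsa-miR-95-3p) to 0.83 (hsa-miR-618 with hsa-miR-138-5p). Some miRNAs outside the 6, named below, came closer to a member than these pairs did.

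The miRNAs outside the 6 with the most similar pattern were hsa-miR-30d-3p (r = 0.92), hsa-miR-1298-5p (0.92) and hsa-miR-500b-3p (0.90) for hsa-miR-582-5p. For hsa-miR-582-3p they were hsa-miR-1298-5p (0.94), hsa-miR-7854-3p (0.93) and hsa-miR-340-3p (0.89). hsa-miR-1298-5p, named for both arms, had a mean level of 7.59 CPM in MV4-11 EV cells and 4.33 CPM after deletion, and of 0.75 CPM in Molm-14 EV cells and 1.71 CPM after deletion.

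For hsa-miR-95-3p the nearest were hsa-miR-30c-1-3p (r = 0.94), hsa-miR-335-3p (0.89) and hsa-miR-548t-5p (0.88), and for hsa-miR-138-5p hsa-miR-548s (0.89), hsa-miR-100-5p (0.89) and hsa-miR-30c-1-3p (0.88). A high r did not mean a change of like size. hsa-miR-30c-1-3p had a log2 fold change of -0.31 in Molm-14 (SE 0.11) where hsa-miR-95-3p had -2.92. For hsa-miR-618 the nearest were hsa-miR-378a-5p (0.97), hsa-miR-199b-5p (0.97) and hsa-miR-584-5p (0.97), and for hsa-miR-216b-5p hsa-let-7a-3p (0.99), hsa-miR-455-5p (0.99) and hsa-miR-548u (0.99).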

How the data were processed

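Small RNA libraries (NEBNext kit) of MV4-11 and Molm-14 cells, EV or MPC1 KO, were made from total RNA. The authors deposited raw counts of reads per mature miRNA, not normalized and with no pooled replicates. The submitters' processing notes name STAR 2.5.2, featureCounts 1.5.1 and GRCh38. How reads matching several miRNAs were counted is not given in the sources used here, which bears on near-identical miRNAs. Groups came from the sample labels.

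From the counts, edgeR 4.0.16 (R 4.3.3) was run on all 12 libraries with filterByExpr (minimum count 10), TMM factors and a robust quasi-likelihood fit of 4 group means. Adjusted p-values are Benjamini-Hochberg over 659 miRNAs, called under 0.05. The filter kept at least 99.97% of each library's counts. The SE is the absolute log2 fold change over the square root of F. Replicates differed by more than sampling noise (chi-square per degree of freedom 11.4 to 154). At this depth a miRNA with a few counts has wide intervals. Intervals of ratios of sums are exact conditional binomial at 95%. The script was tested on simulated data.

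The 6 miRNAs and all lists were chosen with earlier results of these data known. Named are the 6, their partner arms, arms of hairpins within 50000 bases of MIR216B, the 3 miRNAs with the highest r to each, and cell type markers. Places came from GENCODE v44. The annotation around MIR95 is not reported here. Alternatives were other scalings, filters and thresholds, DESeq2 1.42.0, limma-voom (limma 3.58.1), no robust estimation, each line fitted alone, replicate number as a block, and leaving out each library.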

Additional observations from a re-analysis of the deposited data

Results flagged for a closer look

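hsa-miR-582-3p moved in opposite directions in the lines, with all MPC1 KO libraries below the EV libraries in MV4-11 and all above them in Molm-14. The log2 fold changes differed by 1.90, Molm-14 minus MV4-11, and since they chose the miRNA this difference was not tested.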

How the results depend on the processing

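Of 205 values of the 6 miRNAs under other settings, 200 were counted as unchanged and all 205 kept their direction. For knockout changes and their difference, unchanged meant a move of less than the spread between replicates. For the baseline gaps it meant only that the call was kept, so a gap could move further. The baseline gap of hsa-miR-216b-5p went from 4.92 to 5.83 without MV4-11 EV replicate 1. With 1 library left out, 273 of 288 were unchanged in this sense and 287 kept their direction, the exception being the difference for hsa-miR-138-5p. The baseline calls of hsa-miR-582-5p, hsa-miR-582-3p and hsa-miR-95-3p were kept in every setting that tested them, with an adjusted p of at most 5.40e-06. With a mean of at least 100 counts, only hsa-miR-582-3p of the 6 was tested, and with each line fitted alone hsa-miR-618, hsa-miR-138-5p and hsa-miR-216b-5p were not tested in MV4-11. Few counts limit these 3 there. Apart from fewer libraries or miRNAs tested, the cause of a change was not tested.

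With upper-quartile factors, which shift the median log2 fold change of all miRNAs by -0.11 in MV4-11 and by 0.18 in the difference, hsa-miR-582-3p changed by -1.0 in MV4-11, its difference was 2.08 and that of hsa-miR-95-3p was -2.90. With total counts only, hsa-miR-582-3p changed by -0.82 in MV4-11. With limma-voom the difference for hsa-miR-216b-5p was 2.13. The number past the threshold in MV4-11, 20, was 34 at an adjusted p of 0.1. In Molm-14 it was 45, and 77 at 0.1 or 26 with a fold of at least 1.5. The baseline number of 408 was 212 with a mean of at least 100 counts. The number for the difference was 44, split into 16 and 28, and 31 and 13 with upper-quartile factors. The split in MV4-11 was 20 and 6 with total counts only.

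With each library left out, the number past the threshold was 12 to 38 in MV4-11 (12 without MV4-11 MPC1 KO replicate 1, and, leaving out EV replicates 2 and 3 of Molm-14, 38 and 34), 22 to 53 for the difference (22 without MV4-11 MPC1 KO replicate 3), and 0 to 1 for the hairpin neighbours in Molm-14. The log2 fold change in MV4-11 was -2.49 to -1.77 for hsa-miR-618, -4.21 to -0.90 for hsa-miR-138-5p and -1.81 to -0.51 for hsa-miR-216b-5p, and in Molm-14 -3.52 to -2.94 for hsa-miR-138-5p. The difference was 1.16 to 1.70 for hsa-miR-582-5p, 0.69 to 1.41 for hsa-miR-618, -2.36 to 0.94 for hsa-miR-138-5p and 1.56 to 2.84 for hsa-miR-216b-5p. Of the 18 nearest miRNAs named, 10 to 15 stayed named.

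Replicate numbers did not pair the libraries, since only 2 of 18 same-numbered pairs of groups had a correlation of deviations over 0.1 (range -0.13 to 0.18). With replicate number as a block, 22 miRNAs passed in MV4-11, 49 in Molm-14, 42 in the difference and 406 at baseline.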
